A study of Homo sapiens with 8 samples.

Results

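The collagens, the laminins and a set of secreted matrix proteins were followed in the human breast cancer line MDA-MB-231, which has a mesenchymal gene programme, after exposure to c-di-GMP. The genes were taken by symbol from the protein-coding rows of the deposited count table. All symbols of the form COLnAn, LAMAn, LAMBn and LAMCn were used, together with THBS1, TNC, POSTN, LUM, DCN, FBN1, HAS2, SPARC, LOX, LOXL2, TGFBI and EMILIN1. This gave 46 of 16383 genes, 13121 of them protein-coding. They were 26 collagens, 10 laminins and 10 secreted matrix genes. POSTN and DCN were not among the genes listed and so were not analysed here. Of the 46, 33 also stood in the deposited FPKM table.

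Cells in DMEM with 10% fetal bovine serum received 5 µM c-di-GMP for 24 h (4 libraries) or phosphate-buffered saline as vehicle for 24 h (4 libraries). c-di-GMP is a signalling dinucleotide of bacteria, and mammalian STING binds it. Total RNA was extracted with TRIzol and made into libraries with the NEBNext Ultra RNA kit. No label states that the 4 libraries per group came from separate cultures. The p-values therefore refer to library-to-library spread alone, and this may be technical.

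Collagens are trimers of chains wound into a triple helix. Fibrillar collagens build cables, collagen IV builds the sheet of the basement membrane, and collagens VI and VII build filaments and anchoring fibrils. Laminins are trimers of an alpha, a beta and a gamma chain that form the second network of the basement membrane and are read by integrins at the cell surface. The secreted proteins in the set bind, cross-link or space these networks: thrombospondin-1 and tenascin-C modulate adhesion, LOX and LOXL2 cross-link collagen, and HAS2 makes hyaluronan. Breast carcinoma cells secrete and remodel such matrix while they invade, and MDA-MB-231 is widely used for that behaviour.

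The libraries held between 16151360 and 18040010 counts, and a level of 3 counts was 0.166 to 0.186 CPM (counts scaled to the size of the library), a limit that covers counting error only. Levels below are CPM after TMM scaling (trimmed mean of M-values) over the 8 libraries. Vehicle replicate 3 stood apart: its TMM factor was 0.664 against 1.05 to 1.07 in the other 7, and 465 listed genes had no count in it, against 2 to 9 in the others. It lay below the other 3 vehicle libraries for 37 of the 46 matrix genes and for 7882 of all 16383 genes. It lay above them for 6 matrix genes, a count that was not made over all genes. Counts of calls are therefore given for all 8 libraries and for the 7 without that library, and no gene described below passed the edgeR test over all 8. Markers of a mesenchymal breast line (VIM, CD44, AXL, CAV1, ZEB1) were all present, with a summed level of 3292 to 3346 CPM with c-di-GMP, 3225 to 3243 CPM in vehicle replicates 1, 2 and 4, and 4041 CPM in vehicle replicate 3. Of 5 fibroblast markers 2 were listed (PDGFRB and ACTA2), summing to 8.58 to 9.48 CPM with c-di-GMP, 9.39 to 10.2 CPM in vehicle replicates 1, 2 and 4, and 2.5 CPM in vehicle replicate 3. Of 3 endothelial markers 2 were listed (8.17 to 11.5 CPM with c-di-GMP, 8.3 to 9.43 CPM with vehicle, 18.3 CPM in vehicle replicate 3), and no leukocyte marker was. Of 8 luminal epithelial markers 6 were listed, summing to 965 to 980 CPM with c-di-GMP, 957 to 1002 CPM in vehicle replicates 1, 2 and 4, and 2310 CPM in vehicle replicate 3. Of these 6, ERBB3 and GATA3 were lower and CDH1 higher over the 7 libraries (edgeR). With a trend by GC content removed, ERBB3 and GATA3 stayed lower, KRT18 was higher and CDH1 missed the threshold (edgeR adjusted p = 0.0524). Among the mesenchymal markers VIM and CAV1 were higher and AXL lower in both 7-library fits. ACTA2 was higher in both, and PDGFRB was lower only with the GC trend left in. Over all 8 libraries VIM (-0.44), KRT18 (-0.37) and AXL (0.09) had the other sign. The part of these markers in the results was not tested.

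Without vehicle replicate 3, the matrix genes as a whole took a smaller part of the counts with c-di-GMP than with vehicle. Their summed share was 0.689%, 0.7%, 0.67% and 0.673% of all counts in c-di-GMP replicates 1 to 4. In vehicle replicates 1, 2 and 4 it was 0.88%, 0.786% and 0.818%, and in vehicle replicate 3 it was 0.222%. The c-di-GMP libraries thus lay below 3 vehicle libraries and above the fourth, and with all 4 vehicle libraries the means were 0.683% ± 0.0141 with c-di-GMP and 0.676% ± 0.306 with vehicle (SD, n = 4 each). The same order of the libraries held for the laminins (0.275% to 0.287% with c-di-GMP, 0.326% to 0.361% with vehicle, 0.106% in vehicle replicate 3). It also held for the collagens (0.177% to 0.184%, against 0.215% to 0.249% and 0.0782%) and for the secreted matrix genes (0.214% to 0.229%, against 0.245% to 0.27% and 0.0375%). Abundant genes weigh heavily in such sums. In c-di-GMP replicate 1, THBS1 held 18611, LAMB3 13143, LAMA5 10132 and LOXL2 10077 of the 111246 counts of the set. Of the 9 secreted matrix genes tested, 2 were called lower without vehicle replicate 3 (edgeR, all genes 16.2%). The shares were not GC-corrected. In bulk RNA, fewer cells that make a transcript and less transcript per cell cannot be told apart.

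Levels between genes are compared here as CPM per kilobase of the gene's exons. The set spanned a wide range. LAMB3 was highest, at 164.6 CPM per kilobase with c-di-GMP and 191 with vehicle (replicates 1, 2 and 4, as in the rest of this paragraph). THBS1 followed at 116 with c-di-GMP and 135 with vehicle, then LOXL2 at 103 with c-di-GMP and 126 with vehicle. Among collagens COL13A1 (32.8 with c-di-GMP, 45.5 with vehicle) and COL5A1 (26.7 with c-di-GMP, 38.8 with vehicle) led, and the type I collagen genes were low: COL1A1 stood at 1.73 with c-di-GMP and 1.99 with vehicle, and COL1A2 at 0.233 with c-di-GMP and 0.251 with vehicle. At the low end, LUM (lumican, a collagen-binding proteoglycan) held 3 to 11 counts a library and SPARC, a collagen-binding glycoprotein, held 3 to 18. COL9A3 and LUM did not pass the filter on low counts, so 44 genes were tested.

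With all 8 libraries, edgeR's quasi-likelihood test called 0 of the 44 genes lower or higher at a Benjamini-Hochberg adjusted p under 0.05, as it called 0 of all 15415 genes tested, lower (0%) or higher (0%). At an unadjusted p under 0.05 there were 4 matrix genes and 960 of all genes. Those 4 were COL13A1, COL7A1, COL6A2 and COL16A1. In each of them the 4 c-di-GMP libraries lay below all 4 vehicle libraries, as for 7.29% of all genes, and none of the 44 lay above, as for 6.93% of all genes. DESeq2 called the same 4 lower, among 134 of all genes (35 higher, 99 lower), and limma-voom called 0. The median log2 fold change, c-di-GMP over vehicle, was 0.03 over the 44 genes and -0.05 over all genes. Scaling by library totals in place of TMM moved the median of all genes to 0.08 and that of the matrix genes to 0.09.

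Without vehicle replicate 3, 23 of the 44 genes were lower with c-di-GMP (52.3%) and 1 was higher, against 16.2% of all 15647 genes lower and 13.5% higher (edgeR, adjusted p under 0.05). The median log2 fold change was -0.20 over the matrix genes and 0.00 over all genes. In 24 of the 44 every c-di-GMP library lay below vehicle replicates 1, 2 and 4, as for 18.1% of all genes, and in 0 of 44 every one lay above, as for 17.6% of all genes. Of the 23 lower genes, 17 had a negative fold change over all 8 libraries as well. COL17A1 (0.04), COL4A1 (0.01), LAMA3 (0.18), LOXL2 (0.06) and THBS1 (0.08) were among those with a positive one. Vehicle replicate 1 was the highest of the 7 libraries for 28 of the 44 genes, and the same count over all genes was not made. The genes called lower were mostly the abundant ones, and few counts limit what can be called among the others. The lowest fold changes, of COL16A1 (-0.77, called) and COL11A2 (-0.72, not called), were at genes under 10 CPM. Of 29 matrix genes with a mean of at least 10 CPM, 21 were lower (72.4%), against 21.4% of all genes at that level, and of 15 below it 2 were (13.3%, against 7.24%).

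**Figure D1:**
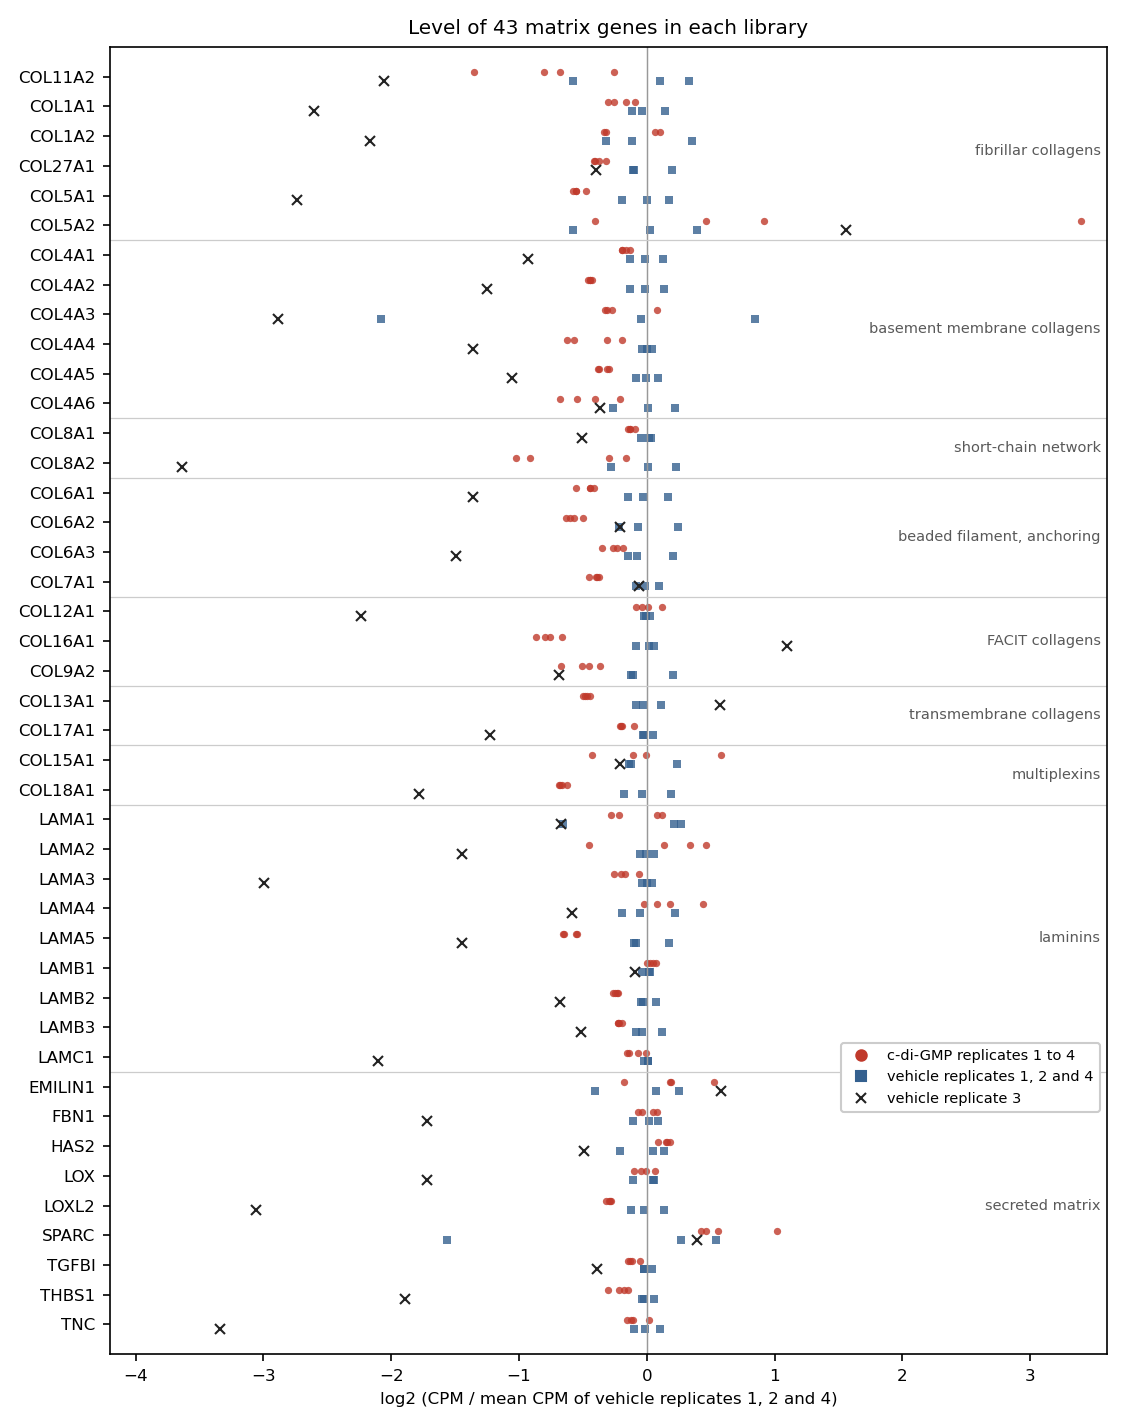
Level of 43 of the tested genes in every library, as log2 of its CPM over the mean CPM of vehicle replicates 1, 2 and 4, with genes grouped by role. Red circles are the 4 c-di-GMP libraries, blue squares the 3 vehicle libraries and crosses vehicle replicate 3. In 23 genes all 4 circles lie left of all 3 squares, and the crosses lie left of the squares for most genes but right of them for COL13A1, COL16A1, COL5A2 and EMILIN1.

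The fold changes went with GC content, and collagen transcripts are rich in G and C. The median GC content of the longest transcript was 54.3% over the 44 genes and 48.3% over all genes tested, and the median exon length was 9141 against 4562 bases. Over all genes the median log2 fold change was 0.13 between 35% and 40% GC, -0.07 between 50% and 55%, and -0.41 between 65% and 70%. The median of the matrix genes lay below that of all genes in each such bin, and the bins held 1 to 12 of them. Between 50% and 55% GC their median was -0.16, between 60% and 65% it was -0.47 (all genes -0.28), and between 65% and 70% it was -0.59. The share of all genes called lower also grew with GC content. Between 50% and 55% GC it was 5 of 8 matrix genes against 15.9% of all genes, between 55% and 60% it was 5 of 6 against 31.6%, and between 65% and 70% it was 3 of 4 against 64.7%. Whether this trend is technical or belongs to the treatment was not tested.

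With a GC trend removed from each library, 16 of the 44 genes were lower (36.4%) and 2 were higher, against 6.62% of all genes lower and 8.59% higher. The median log2 fold change was -0.13 for the matrix genes and -0.00 for all genes. Among the 29 genes at 10 CPM or more 15 were lower (51.7%, all genes 9.19%). Without vehicle replicate 1 the count was 11, all of them lower. Of the 23 genes lower without the correction, 14 stayed lower with it and 21 had a smaller change. LAMC1 and LOX were lower only after it. The calls of COL13A1, COL16A1, COL18A1, COL4A2, COL4A5, COL5A1, COL6A1, COL8A1, LAMA5 and THBS1 held in the GC-corrected fit with every library left out in turn, with a replicate block and with a length correction added, the alternatives run on that fit.

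**Figure D2:**
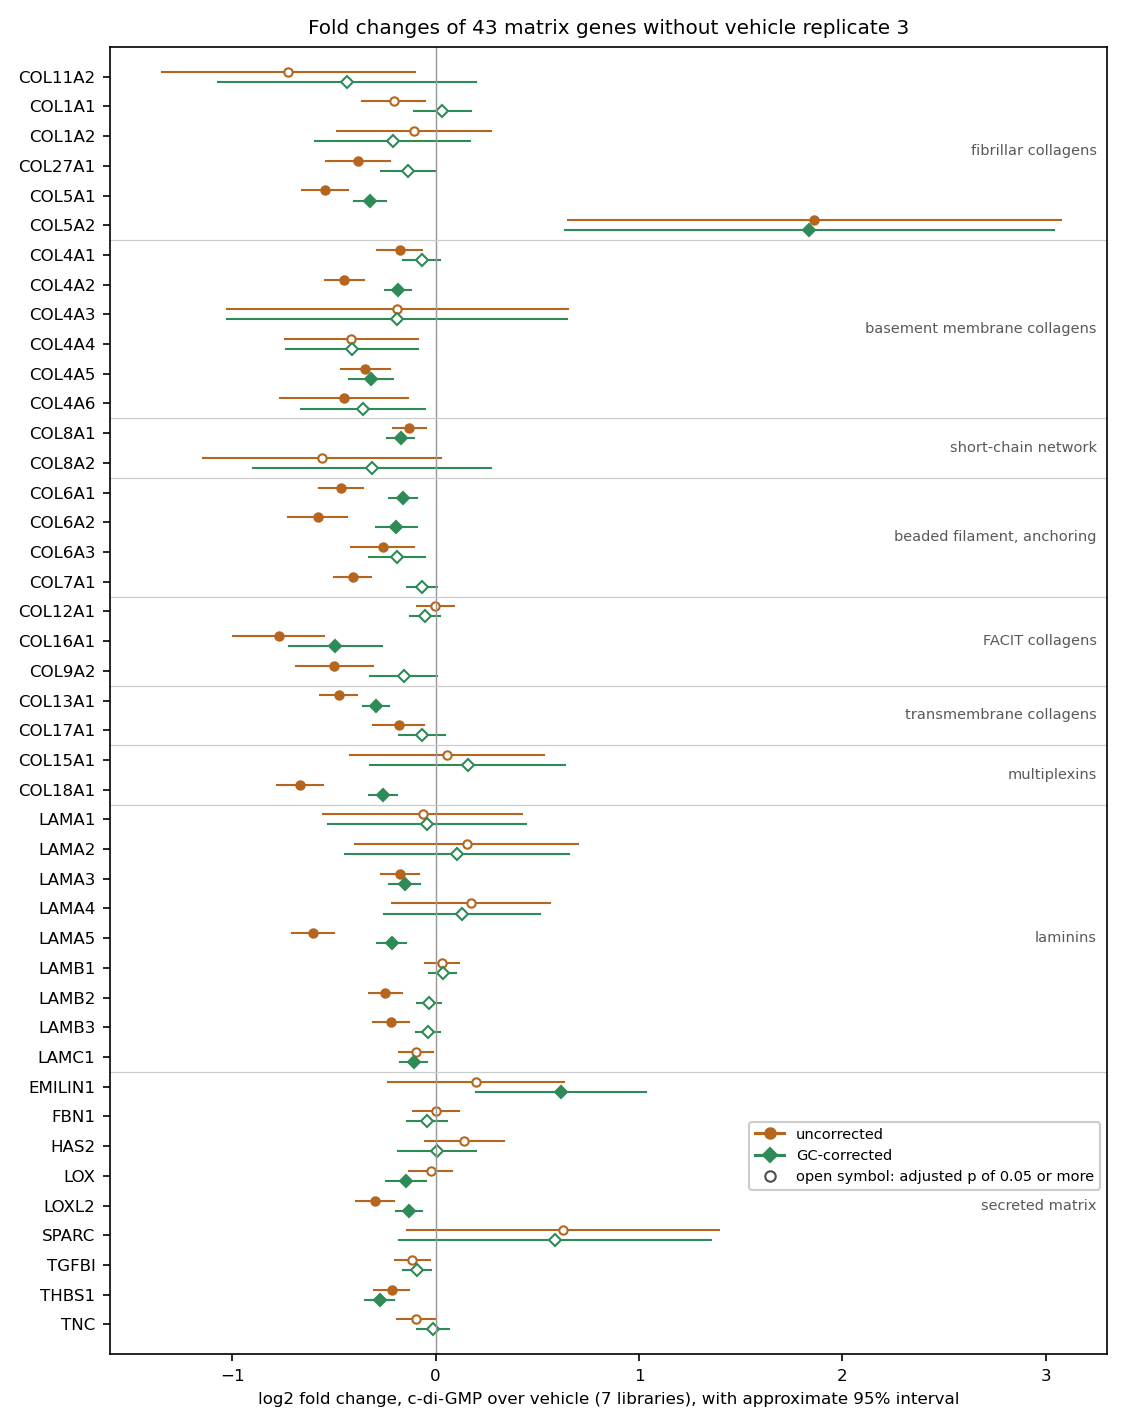
Log2 fold change of 43 of the tested genes, c-di-GMP over vehicle replicates 1, 2 and 4, with approximate 95% intervals. Brown circles are uncorrected and green diamonds GC-corrected, and filled symbols have an adjusted p under 0.05. Filled brown symbols left of 0 number 22 and filled green ones 15, and COL5A2, which rests on 1 library, is far to the right.

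**Figure D3:**
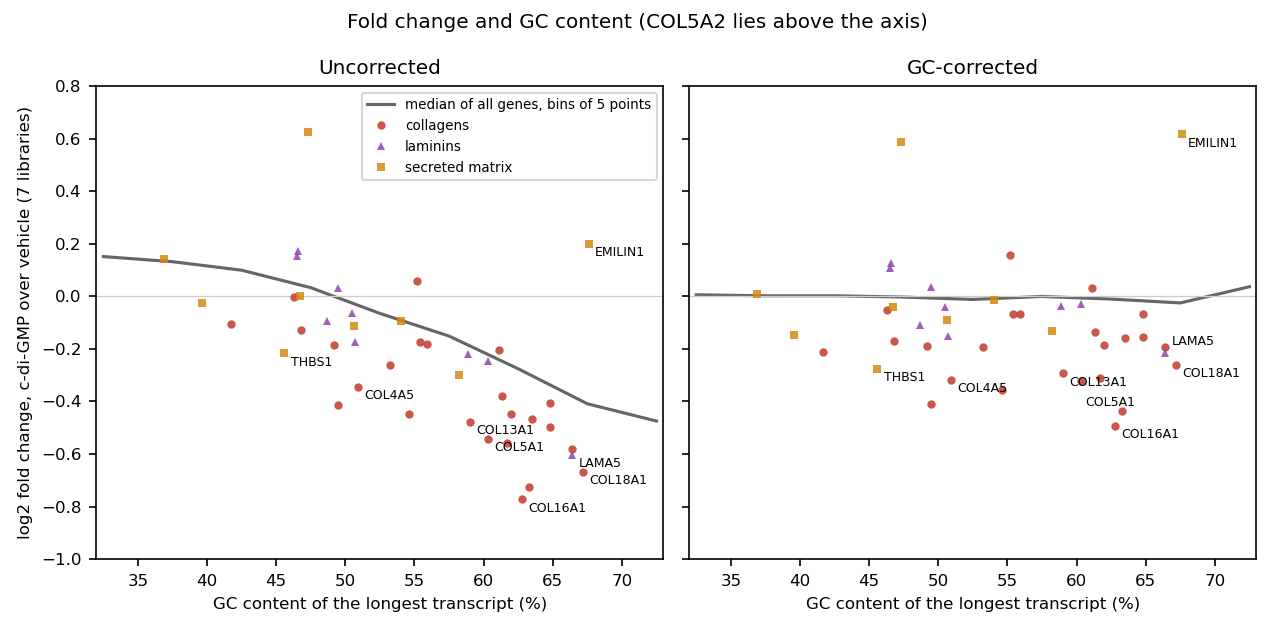
Log2 fold change, c-di-GMP over vehicle (7 libraries), against the GC content of the longest transcript, without (left) and with (right) the GC correction. The grey line is the median of all genes in bins of 5 percentage points. On the left the line runs downward and most matrix genes lie on or under it, and on the right the line is flat near 0 while COL16A1, COL5A1, COL13A1, COL4A5, THBS1, COL18A1 and LAMA5 remain under it.

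All 6 genes of collagen IV, the sheet-forming collagen of basement membranes, were listed. Without vehicle replicate 3, 4 of the 6 were lower, against 16.2% of all genes, and GC-corrected 2 were, against 6.62%. They lie in head-to-head pairs, so that the chains of a pair start from one stretch of DNA on opposite strands. The RefSeq windows on GRCh38.p14 run from 250 bases before to 50 after each start, and 34 of the 46 genes had 1 or more, 44 windows in all. Those of COL4A1 (chr13:110307108-110307407, minus strand) and COL4A2 (chr13:110307034-110307333, plus strand) share 226 bases, with starts 127 bases apart. Those of COL4A6 (chrX:108439409-108439708, minus strand) and COL4A5 (chrX:108439588-108439887, plus strand) share 121 bases, with starts 380 bases apart. For COL4A6 the window taken was the one that overlaps that of COL4A5, so their sharing follows from this choice. The 4 windows are shown because each pair shares them while the fold changes of the partners can be set side by side. Each reads 5′ to 3′ on its gene's strand, and capitals mark GGGCGG (the GC box), CCAAT and TATAAA on either strand.
COL4A1: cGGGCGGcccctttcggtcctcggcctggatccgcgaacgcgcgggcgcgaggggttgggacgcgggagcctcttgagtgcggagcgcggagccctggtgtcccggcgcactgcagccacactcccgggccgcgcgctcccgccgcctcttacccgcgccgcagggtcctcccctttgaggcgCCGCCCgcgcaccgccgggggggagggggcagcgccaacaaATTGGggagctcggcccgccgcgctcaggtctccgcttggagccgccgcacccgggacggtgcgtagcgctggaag
COL4A2: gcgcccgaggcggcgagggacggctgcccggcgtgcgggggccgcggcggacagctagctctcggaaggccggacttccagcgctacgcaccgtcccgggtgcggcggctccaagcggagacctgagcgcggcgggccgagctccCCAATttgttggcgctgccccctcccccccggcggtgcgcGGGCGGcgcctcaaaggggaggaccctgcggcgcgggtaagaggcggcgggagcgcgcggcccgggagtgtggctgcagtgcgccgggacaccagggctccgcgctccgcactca
COL4A6: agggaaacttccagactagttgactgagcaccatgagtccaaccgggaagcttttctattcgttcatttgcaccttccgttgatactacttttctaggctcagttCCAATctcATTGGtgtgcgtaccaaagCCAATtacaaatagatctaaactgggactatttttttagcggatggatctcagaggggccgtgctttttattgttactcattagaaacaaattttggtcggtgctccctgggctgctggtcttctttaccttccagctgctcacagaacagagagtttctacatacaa
COL4A5: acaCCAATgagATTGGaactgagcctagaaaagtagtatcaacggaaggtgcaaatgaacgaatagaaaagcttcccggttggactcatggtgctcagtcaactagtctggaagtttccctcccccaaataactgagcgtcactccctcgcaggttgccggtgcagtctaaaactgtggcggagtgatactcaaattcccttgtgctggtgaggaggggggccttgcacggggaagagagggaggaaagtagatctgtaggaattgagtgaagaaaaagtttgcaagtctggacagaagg

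The collagen IV windows on chromosome 13 were GC-rich (76.7% for COL4A1 and 77.7% for COL4A2) and held the GC box and CCAAT. Those on chromosome X held CCAAT but no GC box (49.3% GC for COL4A5, 43.7% for COL4A6). Over all 35116 windows, 45% held a GC box, 34.6% CCAAT and 11.5% TATAAA. Over the 44 windows of matrix genes 68.2% held a GC box, 22.7% CCAAT and 11.4% TATAAA. A match describes the letters only.

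COL4A2 (ENSG00000134871, chr13:110305812-110513209, plus strand, GRCh38) fell in all c-di-GMP libraries. It had 162, 160.3, 159.6 and 158.5 CPM with c-di-GMP, against 239, 199 and 215 CPM in vehicle replicates 1, 2 and 4 and 91.7 CPM in vehicle replicate 3. The c-di-GMP libraries were close to each other and below those 3 vehicle libraries, and vehicle replicate 3 was lower still. The log2 fold change was -0.45 ± 0.05 (SE, edgeR adjusted p = 5.23e-07) without vehicle replicate 3, -0.19 ± 0.03 (adjusted p = 0.000279) GC-corrected and -0.22 ± 0.27 (adjusted p = 0.758) over all 8. Its partner COL4A1 (ENSG00000187498, chr13:110148963-110307233, minus strand) had 54.9, 52.6, 52.6 and 53.8 CPM with c-di-GMP, against 65.9, 55.1 and 59.8 CPM with vehicle and 31.6 CPM in vehicle replicate 3. Its change was nearer 0, at -0.18 ± 0.06 (adjusted p = 0.0214), and -0.07 ± 0.05 (adjusted p = 0.362) GC-corrected, and it missed the threshold without vehicle replicate 1 or without c-di-GMP replicate 3. The ends of both genes overlap on opposite strands, and since the strand of the reads is not stated, reads there cannot be told apart.

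On the X chromosome, COL4A5 (ENSG00000188153, chrX:108439844-108697545, plus strand) encodes the alpha-5 chain. It had 31.0, 31.4, 29.6 and 29.8 CPM with c-di-GMP, against 41.0, 36.3 and 38.4 CPM with vehicle and 18.6 CPM in vehicle replicate 3. The 2 sets of libraries were apart without vehicle replicate 3, and the change of -0.34 ± 0.06 (edgeR adjusted p = 0.000151) was nearly as large GC-corrected, at -0.32 ± 0.05 (adjusted p = 0.000217). Over all 8 it was -0.14 ± 0.23 (adjusted p = 0.816). COL4A6, its partner, was low, with 2.67 to 3.71 CPM with c-di-GMP, 3.55 to 4.97 CPM with vehicle and 3.31 CPM in vehicle replicate 3. Its groups overlapped, and its change of -0.45 ± 0.16 (adjusted p = 0.0366) missed the threshold GC-corrected (-0.36 ± 0.16, adjusted p = 0.133), and also uncorrected when vehicle replicate 1 or 4 or c-di-GMP replicate 1, 2 or 3 was left out. COL4A3 and COL4A4 did not pass the test. COL4A4 had 2.22 to 3.01 CPM with c-di-GMP, against 3.34 to 3.53 CPM with vehicle and 1.34 CPM in vehicle replicate 3, and passed uncorrected without c-di-GMP replicate 2 or with a stricter filter on low counts. COL4A3 had 0.527 to 0.698 CPM with c-di-GMP, against 0.157 to 1.19 CPM with vehicle and 0.0894 CPM in vehicle replicate 3.

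Among the laminins called lower, LAMA5 (ENSG00000130702, chr20:62307955-62367312, minus strand), the alpha-5 chain of laminin-511 and its relatives, fell most. It had 593, 596, 551 and 553 CPM with c-di-GMP, against 978, 808 and 819 CPM in vehicle replicates 1, 2 and 4 and 318 CPM in vehicle replicate 3. All c-di-GMP libraries lay well below those 3 vehicle libraries and above vehicle replicate 3. The log2 fold change was -0.60 ± 0.05 (edgeR adjusted p = 3.03e-08) without vehicle replicate 3, -0.22 ± 0.04 (adjusted p = 0.000143) GC-corrected and -0.35 ± 0.31 (adjusted p = 0.679) over all 8. LAMA5 is overlapped on the other strand by ADRM1, whose counts came to 20.5% of those of LAMA5. Its window (chr20:62367263-62367562, minus strand, GRCh38.p14) is shown because the gene held the largest fall among laminins. It was 82.7% GC and held 5 GC boxes.
LAMA5: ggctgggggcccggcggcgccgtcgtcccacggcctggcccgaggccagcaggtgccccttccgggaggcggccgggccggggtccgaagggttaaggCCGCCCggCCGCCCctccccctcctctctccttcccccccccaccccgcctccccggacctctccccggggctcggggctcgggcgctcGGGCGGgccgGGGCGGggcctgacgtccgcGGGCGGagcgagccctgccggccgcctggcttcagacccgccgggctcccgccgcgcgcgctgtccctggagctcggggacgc

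LAMA3 and LAMB3 encode the alpha and beta chains of laminin-332, the laminin of epithelial anchoring sites. LAMB3 had 769, 768, 782 and 768 CPM with c-di-GMP, against 973, 846 and 872 CPM with vehicle and 628 CPM in vehicle replicate 3. LAMA3 had 109, 117, 106 and 103 CPM with c-di-GMP, against 126, 119 and 123 CPM with vehicle and 15.4 CPM in vehicle replicate 3. In both genes the c-di-GMP libraries lay below vehicle replicates 1, 2 and 4, by the smaller margin in LAMA3. Both were called lower without vehicle replicate 3 (edgeR): LAMB3 by -0.22 ± 0.04 (adjusted p = 0.000652) and LAMA3 by -0.18 ± 0.05 (adjusted p = 0.00687). GC-corrected, LAMA3 kept its call (-0.15 ± 0.04, adjusted p = 0.00893), and LAMB3 was at -0.04 ± 0.03 (adjusted p = 0.48). The corrected call of LAMA3 was lost without vehicle replicate 4 or c-di-GMP replicate 4. Over all 8 libraries LAMB3 was at -0.10 ± 0.16 and LAMA3 at 0.18 ± 0.54.

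Of the beta-1, beta-2 and gamma-1 chains, which pair with alpha-5, beta-2 (LAMB2) was called lower uncorrected and gamma-1 (LAMC1) GC-corrected. LAMB2 had 423, 416, 419.6 and 411 CPM with c-di-GMP, against 521, 483 and 479 CPM with vehicle and 308 CPM in vehicle replicate 3. It fell by 0.25 ± 0.04 on the log2 scale (adjusted p = 7.58e-05, edgeR), and was at -0.03 ± 0.03 (adjusted p = 0.572) GC-corrected, which did not pass. LAMB1 had 111, 116, 115 and 112 CPM with c-di-GMP, against 112, 112 and 108 CPM with vehicle and 104 CPM in vehicle replicate 3. These overlapped, and its log2 fold change of 0.03 had an interval of -0.05 to 0.12. LAMB1 is overlapped by DLD on the other strand, with counts of 98.1% of its own. LAMC1 had 428, 447, 409 and 404 CPM with c-di-GMP, against 453, 443 and 453 CPM with vehicle and 105 CPM in vehicle replicate 3, and these overlapped as well. Its change was -0.10 ± 0.04 (adjusted p = 0.0927), and -0.11 ± 0.03 (adjusted p = 0.0339) GC-corrected. That call was lost without vehicle replicate 1 or 4 or c-di-GMP replicate 1, 3 or 4, and the uncorrected value passed without c-di-GMP replicate 2. Over all 8 libraries LAMB2 was at -0.10 ± 0.18 and LAMC1 at 0.21 ± 0.41. LAMA1, LAMA2 and LAMA4, the alpha chains of embryonic, muscle and vessel laminins, stayed between 0.711 and 2.73 CPM with c-di-GMP and between 0.939 and 2.35 CPM in vehicle replicates 1, 2 and 4, and did not pass the test.

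The level of one chain relative to another gives a measure that library scaling does not touch. Of 8 ratios of CPM per kilobase, 4 differed without overlap when vehicle replicate 3 was left out. The share of other gene pairs that do so was not computed. Among single genes 18.1% lay apart below and 17.6% above over these 7 libraries. In each of the 4 ratios the first chain had the higher GC content, as with LAMA5 (66.4%) over LAMC1 (48.7%) and COL4A2 (62.0%) over COL4A1 (55.4%). COL4A2 over COL4A1 was 2.25, 2.33, 2.32 and 2.25 with c-di-GMP, against 2.77, 2.76 and 2.75 with vehicle and 2.21 in vehicle replicate 3. LAMA5 over LAMC1 was 0.816, 0.785, 0.792 and 0.805 with c-di-GMP, against 1.27, 1.07 and 1.06 with vehicle and 1.79 in vehicle replicate 3. LAMB2 over LAMB1 was 4.25 to 4.52 with c-di-GMP, 5.11 to 5.5 with vehicle and 3.51 in vehicle replicate 3. COL6A1 over COL6A3 was 22.3 to 23.5 with c-di-GMP, 25.3 to 28.9 with vehicle and 29.2 in vehicle replicate 3. The ratios LAMA5 over LAMC1 and COL6A1 over COL6A3 were thus lower with c-di-GMP than in every vehicle library, and the other 2 than in 3 of 4. Each of the 4 gave p = 0.0571 in an exact permutation test, two-sided (0.114 after Benjamini-Hochberg adjustment over the 8 ratios), and 0.0571 is the smallest p that 4 against 3 libraries allow. GC-corrected, COL4A2 over COL4A1 (2.34 to 2.46 with c-di-GMP, 2.51 to 2.67 with vehicle) and LAMA5 over LAMC1 (0.878 to 0.911 with c-di-GMP, 0.932 to 0.99 with vehicle) were still apart, and LAMB2 over LAMB1 and COL6A1 over COL6A3 overlapped. LAMB3 over LAMA3 was then 21.7 to 24.7 with c-di-GMP and 21.2 to 21.7 with vehicle, apart by less than the last digit given. Without the correction LAMB3 over LAMA3 (20.5 to 23.4 with c-di-GMP, 22.2 to 24.2 with vehicle) overlapped, and in vehicle replicate 3 it was 128.0.

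Among the 6 fibrillar collagens listed of 11 named, COL5A1 was the abundant one. It encodes the alpha-1 chain of collagen V, which sets the width of collagen I fibrils. COL5A1 (ENSG00000130635, chr9:134641774-134844843, plus strand) had 295, 312, 296 and 290.1 CPM with c-di-GMP, against 489, 379 and 433 CPM in vehicle replicates 1, 2 and 4 and 65.2 CPM in vehicle replicate 3. The c-di-GMP libraries lay below 3 vehicle libraries and far above the fourth. The log2 fold change was -0.54 ± 0.06 (edgeR adjusted p = 2.7e-07) without vehicle replicate 3, -0.32 ± 0.04 (adjusted p = 4.2e-06) GC-corrected and -0.20 ± 0.51 (adjusted p = 0.888) over all 8. COL27A1, a fibrillar collagen of cartilage, had 16.6, 16.1, 15.7 and 15.6 CPM with c-di-GMP, against 23.8, 19.4 and 19.2 CPM with vehicle and 15.8 CPM in vehicle replicate 3. Its change of -0.38 ± 0.08 (adjusted p = 0.000893) did not pass GC-corrected (-0.14 ± 0.07, adjusted p = 0.197), and over all 8 it was -0.29 ± 0.14 (adjusted p = 0.623).

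COL5A2, the partner chain of COL5A1, was the only collagen called higher, and that rested on 1 library. It had 0.878, 1.203, 0.48 and 6.71 CPM in c-di-GMP replicates 1 to 4, against 0.427, 0.835 and 0.647 CPM in vehicle replicates 1, 2 and 4 and 1.88 CPM in vehicle replicate 3. The groups overlapped, and only c-di-GMP replicate 4 stood out. The log2 fold change of 1.86 ± 0.62 (edgeR adjusted p = 0.024; GC-corrected 1.84 ± 0.61, adjusted p = 0.0411) was 0.40 without that library and then missed the threshold, as it also did without vehicle replicate 1 or 4, in DESeq2 and in limma-voom. COL1A1 (15.8 to 18.3 CPM with c-di-GMP, 18.1 to 21.5 CPM with vehicle, 3.22 CPM in vehicle replicate 3) and COL1A2 (2.22 to 3.01 CPM with c-di-GMP, 2.24 to 3.58 CPM with vehicle, 0.626 CPM in vehicle replicate 3), the 2 chains of collagen I, did not pass. COL1A1 was close to the threshold uncorrected (-0.21 ± 0.08, edgeR adjusted p = 0.0508), passed it without vehicle replicate 4 or c-di-GMP replicate 4, under library totals and under both other filters, and was at 0.03 ± 0.07 GC-corrected. COL11A2, a cartilage chain, had 0.437 to 0.936 CPM with c-di-GMP, 0.748 to 1.40 CPM with vehicle and 0.268 CPM in vehicle replicate 3, and passed only uncorrected and without vehicle replicate 1.

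All 4 genes of the beaded filament and anchoring fibril collagens fell without vehicle replicate 3, against 16.2% of all genes, and 2 of the 4 GC-corrected, against 6.62%. Over all 8 libraries their values were -0.22 ± 0.29 (COL6A1), -0.53 ± 0.13 (COL6A2), -0.01 ± 0.31 (COL6A3) and -0.39 ± 0.09 (COL7A1), and 55.5% of all genes were negative there. COL6A1, COL6A2 and COL6A3 encode the chains of collagen VI. COL6A1 (ENSG00000142156, chr21:45981737-46005050, plus strand) had 131, 128, 129 and 119 CPM with c-di-GMP, against 196, 157.5 and 171 CPM with vehicle and 68.1 CPM in vehicle replicate 3. COL6A2 (ENSG00000142173, chr21:46098097-46132849, plus strand) had 44.9, 41.9, 41.0 and 42.9 CPM with c-di-GMP, against 75.4, 54.7 and 60.7 CPM with vehicle and 55.1 CPM in vehicle replicate 3. COL6A2 thus lay below all 4 vehicle libraries, and COL6A1 below 3. Without vehicle replicate 3 the changes were -0.47 ± 0.06 for COL6A1 (edgeR adjusted p = 1.39e-06) and -0.58 ± 0.07 for COL6A2 (adjusted p = 3.53e-06). GC-corrected they were -0.16 ± 0.04 for COL6A1 (adjusted p = 0.00295) and -0.19 ± 0.05 for COL6A2 (adjusted p = 0.0111), and the corrected call of COL6A2 was lost without vehicle replicate 1. COL6A3, with 19.0 to 21.2 CPM with c-di-GMP, 21.8 to 27.8 CPM with vehicle and 8.58 CPM in vehicle replicate 3, fell by 0.26 ± 0.08 (adjusted p = 0.0139). That call was lost without vehicle replicate 1 or c-di-GMP replicate 4 and with the GC correction (-0.19 ± 0.07, adjusted p = 0.0664), under which it passed without vehicle replicate 4 or c-di-GMP replicate 2.

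COL7A1 (ENSG00000114270, chr3:48564073-48595267, minus strand) encodes the anchoring fibril that ties epithelium to the tissue beneath. It had 85.5, 82.5, 85.8 and 87.1 CPM with c-di-GMP, against 120.2, 111.5 and 106.5 CPM in vehicle replicates 1, 2 and 4 and 108 CPM in vehicle replicate 3. Here vehicle replicate 3 stood among its group, and all 4 c-di-GMP libraries lay below all 4 vehicle libraries. The change was -0.39 ± 0.09 over all 8 libraries (edgeR adjusted p = 0.623, unadjusted p = 0.00303) and -0.41 ± 0.05 without vehicle replicate 3 (adjusted p = 9.69e-07). It was -0.07 ± 0.04 GC-corrected (adjusted p = 0.252), where the groups overlapped. Its transcript was 64.8% GC.

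COL13A1, a transmembrane collagen found at cell adhesions, was the collagen with the highest level per kilobase. COL13A1 (ENSG00000197467, chr10:69801867-69964275, plus strand) had 197, 194, 192 and 189.7 CPM with c-di-GMP, against 289.9, 252 and 262 CPM in vehicle replicates 1, 2 and 4 and 399 CPM in vehicle replicate 3. All c-di-GMP libraries lay below all 4 vehicle libraries, and vehicle replicate 3 was the highest of them. The log2 fold change was -0.64 ± 0.16 over all 8 (edgeR adjusted p = 0.623, unadjusted p = 0.00457), -0.48 ± 0.05 without vehicle replicate 3 (adjusted p = 8.82e-08) and -0.29 ± 0.03 GC-corrected (adjusted p = 7.83e-07). Its window (chr10:69801656-69801955, plus strand, GRCh38.p14) is shown because it was the most abundant gene that fell beside every vehicle library. It held TATAAA once and neither the GC box nor CCAAT.
COL13A1: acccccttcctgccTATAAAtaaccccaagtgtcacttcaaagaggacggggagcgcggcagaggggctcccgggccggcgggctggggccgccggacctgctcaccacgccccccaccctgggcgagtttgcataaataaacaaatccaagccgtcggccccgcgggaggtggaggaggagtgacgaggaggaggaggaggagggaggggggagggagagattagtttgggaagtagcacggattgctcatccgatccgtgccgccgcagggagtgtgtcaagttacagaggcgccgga

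COL17A1, the other transmembrane collagen and part of the hemidesmosome, had 22.5, 22.8, 22.7 and 24.4 CPM with c-di-GMP, against 27.1, 25.7 and 25.6 CPM with vehicle and 11.2 CPM in vehicle replicate 3. It fell by 0.18 ± 0.06 (edgeR adjusted p = 0.0341), a call lost without vehicle replicate 1 or 4 or c-di-GMP replicate 1, 2 or 3. GC-corrected it was at -0.07 ± 0.06 (adjusted p = 0.511). COL16A1, a FACIT collagen (one that sits on the surface of fibrils), was low but apart in every comparison. COL16A1 (ENSG00000084636, chr1:31652247-31704319, minus strand) had 5.03, 4.37, 4.59 and 4.72 CPM with c-di-GMP, against 7.53, 8.30 and 8.08 CPM with vehicle and 17.1 CPM in vehicle replicate 3. It had the largest fall of the set, by 0.77 ± 0.11 (adjusted p = 1.91e-05) without vehicle replicate 3 and by 0.49 ± 0.12 (adjusted p = 0.00479) GC-corrected, and was at -1.12 ± 0.28 (adjusted p = 0.623, unadjusted p = 0.00408) over all 8. COL9A2, a FACIT collagen of cartilage, had 10.9, 9.79, 11.4 and 12.1 CPM with c-di-GMP, against 18, 14.3 and 14.4 CPM with vehicle and 9.65 CPM in vehicle replicate 3. It fell by 0.50 ± 0.10 (adjusted p = 0.000391) and was at -0.16 ± 0.08 GC-corrected (adjusted p = 0.236) and -0.35 ± 0.19 over all 8 (adjusted p = 0.623). COL12A1, the abundant FACIT collagen here, showed no detectable difference. It had 301.5, 325, 282 and 292 CPM with c-di-GMP, against 299, 295.5 and 305 CPM with vehicle and 63.7 CPM in vehicle replicate 3, with an interval of -0.09 to 0.09 on the log2 scale.

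COL18A1 is a basement membrane multiplexin whose C-terminal fragment is endostatin. COL18A1 (ENSG00000182871, chr21:45405137-45513720, plus strand) had 108, 104, 103 and 103 CPM with c-di-GMP, against 189, 146.5 and 161 CPM in vehicle replicates 1, 2 and 4 and 48.2 CPM in vehicle replicate 3. The c-di-GMP libraries were well below vehicle replicates 1, 2 and 4 and above vehicle replicate 3. The log2 fold change was -0.67 ± 0.06 (edgeR adjusted p = 2.73e-08), -0.26 ± 0.04 (adjusted p = 1.16e-05) GC-corrected and -0.38 ± 0.36 (adjusted p = 0.693) over all 8. COL15A1, the other multiplexin, stayed at 1.23 to 2.47 CPM with c-di-GMP and 1.495 to 1.94 CPM with vehicle and did not pass. COL8A1, a short-chain network collagen, had between 198 and 206 CPM in the c-di-GMP libraries, against 224, 212 and 221 CPM with vehicle and 154 CPM in vehicle replicate 3. Its change was small, -0.13 ± 0.04 (adjusted p = 0.0183), and larger GC-corrected, -0.17 ± 0.03 (adjusted p = 0.000735). The uncorrected call was lost without vehicle replicate 4, and over all 8 the value was -0.01 ± 0.14. COL8A2, its partner, had 0.547 to 0.995 CPM with c-di-GMP, 0.916 to 1.305 CPM with vehicle and 0.0894 CPM in vehicle replicate 3, and did not pass.

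**Figure D4:**
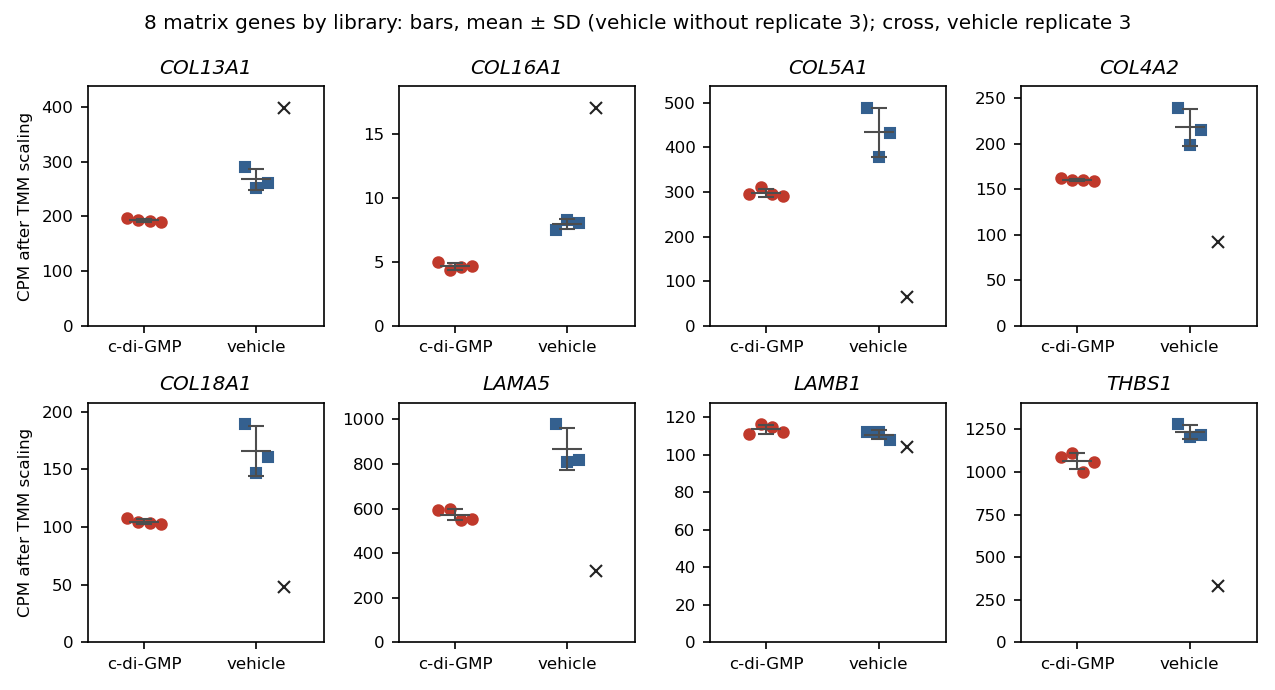
CPM after TMM scaling in each library for 8 of the genes, with c-di-GMP (red circles) left of vehicle (blue squares; cross, vehicle replicate 3) and bars at mean ± SD without the cross. In COL13A1 and COL16A1 all vehicle points, the cross included, lie above the c-di-GMP points, in COL5A1, COL4A2, COL18A1, LAMA5 and THBS1 the cross lies below them, and in LAMB1 the groups overlap.

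Of the secreted genes, THBS1 and LOXL2 fell in both 7-library fits. THBS1 (ENSG00000137801, chr15:39581079-39599466, plus strand), thrombospondin-1, an adhesive glycoprotein that restrains vessel growth, was the most abundant of the 46 by CPM. It had 1089, 1111, 998 and 1058 CPM with c-di-GMP, against 1279, 1204 and 1216 CPM in vehicle replicates 1, 2 and 4 and 332 CPM in vehicle replicate 3. The groups were apart without vehicle replicate 3, and the change of -0.22 ± 0.04 (edgeR adjusted p = 0.000596) was -0.28 ± 0.04 GC-corrected (adjusted p = 9.87e-06). Among the 23 genes called lower uncorrected, THBS1 was one of 2 whose fall grew with the correction. Its change over all 8 libraries was 0.08 ± 0.38 (adjusted p = 0.944). LOXL2, a lysyl oxidase that cross-links collagen IV, had 589.7, 592, 588 and 578.5 CPM with c-di-GMP, against 791, 661 and 708 CPM with vehicle and 86.4 CPM in vehicle replicate 3. It fell by 0.30 ± 0.05 (adjusted p = 5.13e-05), by 0.13 ± 0.03 GC-corrected (adjusted p = 0.00662; lost without vehicle replicate 1), and was at 0.06 ± 0.56 over all 8.

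The remaining secreted genes had few calls. LOX had 71.3, 73.3, 68.5 and 76.8 CPM with c-di-GMP, against 76.6, 68.2 and 75.9 CPM with vehicle and 22.3 CPM in vehicle replicate 3, which overlapped. It was at -0.02 ± 0.05 (edgeR adjusted p = 0.766) and, GC-corrected, lower by -0.15 ± 0.05 (adjusted p = 0.0459), a call lost without vehicle replicate 1 or 4 or c-di-GMP replicate 1 or 3. Over all 8 it was at 0.25 ± 0.35. LOX is overlapped by SRFBP1 on the other strand, with 23.5% of its counts. TNC (205 to 231 CPM with c-di-GMP, 212 to 246 CPM with vehicle), TGFBI (88.7 to 94.5 CPM with c-di-GMP, 96.5 to 101 CPM with vehicle), FBN1 (51.3 to 56.97 CPM with c-di-GMP, 50.1 to 57.2 CPM with vehicle) and HAS2 (10.3 to 11.0 CPM with c-di-GMP, 8.40 to 10.7 CPM with vehicle) did not pass in any of the 3 fits. Uncorrected, TGFBI passed without c-di-GMP replicate 3 or with a stricter filter and TNC without vehicle replicate 2. They encode tenascin-C, a TGF-beta-induced adhesion protein, fibrillin-1 and a hyaluronan synthase. All 4 were lowest in vehicle replicate 3, where TNC had 22.5 CPM, TGFBI 74.7 CPM, FBN1 16.4 CPM and HAS2 6.88 CPM. EMILIN1, an elastic-fibre glycoprotein, had 2.05, 1.59, 2.03 and 2.58 CPM with c-di-GMP, against 2.14, 1.36 and 1.89 CPM with vehicle and 2.68 CPM in vehicle replicate 3. Its groups overlapped (0.20 ± 0.22, adjusted p = 0.534), and it was higher GC-corrected, by 0.62 ± 0.21 (adjusted p = 0.0485), a call lost when any library but c-di-GMP replicate 2 was left out. SPARC had 0.64 to 0.967 CPM with c-di-GMP, 0.162 to 0.694 CPM with vehicle and 0.626 CPM in vehicle replicate 3, and did not pass.

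The enzymes and chaperones that fold, modify and trim collagen had fewer calls once GC content was taken into account. Of 29 such genes listed, 11 were lower and 3 higher without vehicle replicate 3 (edgeR; median log2 fold change -0.12), against 16.2% lower and 13.5% higher of all genes. GC-corrected, 3 of the 29 were lower (10.3%; P3H1, LOXL4 and ADAMTS14) and 1 higher (3.45%; PPIB), with a median of -0.01, against 6.62% and 8.59% of all genes, whose calls also dropped, to 2380 GC-corrected against 4633 uncorrected. The 3 higher without the correction were P4HA1, PLOD2 and SEC23A, and all 3 calls were lost without c-di-GMP replicate 4. P4HA1 was at -0.30 over all 8 libraries, with 265 CPM in vehicle replicate 3 and 104 to 113 CPM in the other vehicle libraries. With all 8 libraries 0 of 28 passed in edgeR, with 2 (ADAMTS14 and P3H4) at an unadjusted p under 0.05, and 0 in DESeq2 and in limma-voom. P3H1, a prolyl 3-hydroxylase, had 132, 124, 131 and 132 CPM with c-di-GMP, against 162, 143 and 152 CPM with vehicle and 113 CPM in vehicle replicate 3, and fell by 0.24 ± 0.05 (adjusted p = 0.000454) and by 0.24 ± 0.04 GC-corrected (adjusted p = 0.00011). LOXL4, a further lysyl oxidase, had 217.5 to 229.6 CPM with c-di-GMP, 255 to 289 CPM with vehicle and 194 CPM in vehicle replicate 3, and fell by 0.30 ± 0.04 (adjusted p = 2.42e-05) and by 0.14 ± 0.03 GC-corrected (adjusted p = 0.00368). PPIB, the cyclophilin of the endoplasmic reticulum, was higher GC-corrected (0.18 ± 0.04, adjusted p = 0.00246), a call lost when a length correction was added. ADAMTS14, a procollagen peptidase, fell by 0.55 ± 0.10 (adjusted p = 0.000165) and by 0.30 ± 0.09 GC-corrected (adjusted p = 0.0165), where its groups overlapped. P3H1 was at -0.14 ± 0.13, LOXL4 at -0.18 ± 0.14 and ADAMTS14 at -0.44 ± 0.17 over all 8 libraries. Without the correction there were 14 calls, and 9 when c-di-GMP replicate 4 was left out.

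Partners of these proteins in the matrix and at the cell surface moved both ways. Of 18 listed, 6 were lower and 2 higher in both the uncorrected and the GC-corrected 7-library fit (edgeR; medians -0.11 and -0.10), where all genes had 16.2% lower and 13.5% higher uncorrected and 6.62% and 8.59% GC-corrected. Of the 18, 0 passed with all 8, where 2 (EFEMP1 and FBLN1) had an unadjusted p under 0.05, DESeq2 called EFEMP1 alone and limma-voom 0. AGRN, HSPG2, PXDN, DDR1 and CYR61 were lower in both fits, DAG1 without the correction and FN1 with it, and EFEMP1 and CTGF were higher in both. Over all 8 libraries the sign was the other one for CTGF (-0.48, with 662 CPM in vehicle replicate 3 and 215 to 218 CPM in the other vehicle libraries), DAG1 (0.18), FN1 (0.14) and PXDN (0.11). AGRN, agrin, a heparan sulfate proteoglycan that binds laminin, had 605, 587, 585 and 585 CPM with c-di-GMP, against 1026, 822 and 858 CPM with vehicle and 306 CPM in vehicle replicate 3. It fell by 0.61 ± 0.05 (adjusted p = 2.68e-08) and by 0.20 ± 0.03 GC-corrected (adjusted p = 7.46e-05), and was at -0.35 ± 0.33 over all 8. HSPG2, perlecan, the large proteoglycan of basement membranes, had 271, 309, 262 and 263 CPM with c-di-GMP, against 459, 369.6 and 403 CPM with vehicle and 19.8 CPM in vehicle replicate 3. HSPG2 fell by 0.57 ± 0.06 (adjusted p = 2.7e-07) and by 0.24 ± 0.05 GC-corrected (adjusted p = 0.000723), and was at -0.18 ± 0.72 over all 8. GC-corrected, its groups overlapped, with 368.5 CPM in c-di-GMP replicate 2 and 366.6 CPM in vehicle replicate 2. EFEMP1, fibulin-3, went the other way. It had 133.5, 133, 138 and 134 CPM with c-di-GMP, against 99.98, 109 and 113 CPM with vehicle and 81.3 CPM in vehicle replicate 3, higher by 0.33 ± 0.05 (adjusted p = 9.49e-06) and by 0.26 ± 0.04 GC-corrected (adjusted p = 1.82e-05), and above all 4 vehicle libraries. The uncorrected count of 8 was 5 without c-di-GMP replicate 3 or 4, and the corrected count of 8 was 4 or 5 without vehicle replicate 1 or 4 or c-di-GMP replicate 1 or 4.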

How the data were processed

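Bulk RNA was sequenced from 4 c-di-GMP and 4 vehicle libraries. The authors deposited a table of read counts per gene and one of FPKM values, each with 16383 genes. Per the submitters' processing notes, the tools were HISAT2 2.0.5 and featureCounts 1.5.0-p3, with CASAVA 1.8, fastp and DESeq2 1.20.0 also named, and a mouse build is named, but the gene identifiers are human and all 46 matrix genes have the same coordinates in GENCODE release 29 (GRCh38). Whether counting used strand is not given in the sources used here, so genes overlapped on the other strand are uncertain.

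The deposited counts were filtered with filterByExpr (minimum count 10, minimum total 15), TMM-scaled and tested with edgeR 4.0.16 in R 4.3.3 (quasi-likelihood F test, treatment only, two-sided, Benjamini-Hochberg over all genes, threshold 0.05) on all 8 libraries, on the 7 without vehicle replicate 3, and on those 7 with a GC offset: within each library, log2 deviations from the mean of the gene were smoothed by lowess (span 0.3) against the GC content of its longest transcript. Levels are CPM with SE or SD as stated. The deposited FPKM values served for alternatives only (limma 3.58.1 on log2 values with a pseudocount of 1 or 0.1). DESeq2 1.42.0, limma-voom, other scalings and filters, a replicate block, a length correction and each library left out were further alternatives. The tests were tried on simulated data. Promoter windows are RefSeq's on GRCh38.p14.

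The genes, lists, chain ratios, and 7-library and GC-corrected fits were chosen with earlier results of these data known. Values per library are given for genes called in any fit with a mean of at least 1 CPM (up to 25, smallest p first), for the 3 of each class highest in FPKM, for all laminins and for the secreted genes; of the other lists, up to 4 with the smallest p. Genes outside this rule, COL4A6 and COL17A1 among them, were named after their values were seen. The values of 1 laminin gene are not reported here, though it stays in the counts, medians and shares over the set and in the family of chain ratios.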

Additional observations from a re-analysis of the deposited data

Results flagged for a closer look

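In each gene, the libraries of a group were checked for 1 that lay far from the other 3 (gap to the nearest over the whole range, Dixon's 95% limit for 4 values). Of 90 groups checked 17 held such a library, where chance flags about 1 group in 20, and in 12 of the 17 it was vehicle replicate 3. The other flags came to about what that rate gives over 90 groups. The genes share the same 8 libraries, so the groups are not independent and the rate is a rough guide.

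In vehicle replicate 3, the library lay below the other vehicle libraries for COL12A1 (63.7 CPM), COL17A1 (11.2 CPM), COL4A4 (1.34 CPM), LAMA2 (0.358 CPM), LAMA3 (15.4 CPM), LAMC1 (105 CPM), LOX (22.3 CPM), TGFBI (74.7 CPM), THBS1 (332 CPM) and TNC (22.5 CPM). It lay above them for COL16A1 (17.1 CPM) and COL9A3 (1.16 CPM). Among c-di-GMP libraries, replicate 4 was the far one for COL5A2 (6.71 CPM), COL17A1 (24.4 CPM) and COL4A3 (0.698 CPM), each time on the high side, and replicate 3 was for LAMB3 (782 CPM). Vehicle replicate 4 was the high one for COL15A1 (1.94 CPM).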

How the results depend on the processing

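With all 8 libraries the 0 matrix genes, 0 collagen processing genes and 0 matrix partners called became 24, 14 and 8 without vehicle replicate 3 (ranges over left-out libraries 0 to 24, 0 to 14 and 0 to 8), DESeq2 called 4 matrix genes and 1 partner, and the other alternatives called 0. Among the genes with values reported here, the fold changes of 5 turned from positive to negative and passed when that library was left out. Their ranges over left-out libraries were -0.18 to 0.15 (COL17A1), -0.18 to 0.13 (COL4A1), -0.18 to 0.34 (LAMA3), -0.30 to 0.27 (LOXL2) and -0.22 to 0.21 (THBS1). Library totals in place of TMM moved the median of all genes over 8 libraries from -0.05 to 0.08.

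Without vehicle replicate 3, the 24 calls among matrix genes ranged from 20 to 25 over left-out libraries and from 16 (fits on log2 FPKM) to 26 otherwise. Of the 23 of these with values reported here, 17 held with every library left out and 11 under every setting that tested them. All 3 FPKM fits lost COL27A1, COL4A1, COL6A3, LAMA3 and COL17A1, 2 of them also lost COL4A6, and DESeq2 lost COL17A1, COL4A6 and COL5A2. GC-corrected, the 18 calls ranged from 11 (without vehicle replicate 1) to 19, and were 14 with a length correction added, which lost LAMA3, LAMC1 and LOX among others. The 14 processing genes ranged from 9 to 13 and were 4 GC-corrected. The 8 partners ranged from 5 to 8, and GC-corrected from 4 to 8, with 5 under the length correction.

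Deviations of same-numbered libraries from their group means had correlations from -0.0578 to 0.184 over 8 libraries and from -0.00525 to 0.0101 over 7. Libraries with different numbers were not compared in this way, so these values have no reference. The replicate numbers were not taken as pairs in the main fits. With a replicate block, 0 matrix genes were called over all 8 libraries, 21 over 7 and 13 GC-corrected, and partners numbered 5 over 7 libraries and 4 GC-corrected. Depth and the number of libraries limit what can be called among low genes: COL4A3, for one, had an interval of -1.03 to 0.65 on the log2 scale over 7 libraries. The cause of each change above was not tested.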
